A study of Arabidopsis thaliana with 27 samples.

Results

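The pollen tube wall and integrity genes studied here are 10 loci of Arabidopsis thaliana, picked by locus identifier out of the 33602 loci counted in each library. They are the receptor-like kinase genes ANX1 (AT3G04690), ANX2 (AT5G28680), BUPS1 (AT4G39110) and BUPS2 (AT2G21480), the leucine-rich repeat extensin genes LRX8 (AT3G19020), LRX9 (AT1G49490), LRX10 (AT2G15880) and LRX11 (AT4G33970), and the pectin methylesterase genes VGD1 (AT2G47040) and PPME1 (AT1G69940). Messenger RNA was sequenced from stamens of stage 11 buds and gynoecia of stage 12 flowers, all from plants of the Columbia background, in a study of the auxin response factors ARF6 and ARF8 and of miR167, the microRNA that targets their transcripts. The stamen groups were wild type with 3 libraries, a double mutant in ARF6 and ARF8 (written arf6arf8) with 2, and mARF8 with 4, in which an added genomic copy of ARF8 has lost its miR167 target site. By title, mARF8 stamens 1 and 3 were the stable line 3B, 2 the stable line 4B and 4 several T1 plants pooled, although the genotype tag of all 4 reads 4B. Gynoecia came from wild type (n = 4), arf6arf8 (n = 2), mARF8 (n = 4, line 3B where a line is named), axr3 (n = 4) and arf6axr3 (n = 4). The axr3 plants carried Pstk_axr3, a gain-of-function axr3-1 gene for a stabilised AXR3/IAA17 protein under the SEEDSTICK promoter, and arf6axr3 plants carried it together with the arf6 mutation. Among axr3 libraries, 3 was line 15-5, 4 came from F1 plants of Columbia and line 25-2, and 1 and 2 name no line, while arf6axr3 libraries 1 and 3 were line 15-5 and 2 and 4 line 25-2 by title (all 4 are tagged 15-5).

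A pollen tube grows at its tip, where new wall of pectin is laid down, and it must stay whole until it reaches the ovule. ANX1, ANX2, BUPS1 and BUPS2 belong to the CrRLK1L family of receptor kinases, sit in the plasma membrane of the tube and, with the co-receptors LLG2 and LLG3, perceive the RALF4 and RALF19 peptides, and tubes that lack either receptor pair burst early. LRX8 to LRX11 are wall proteins of pollen that bind the same peptides, and VGD1 and PPME1 remove methyl groups from pectin, which changes how stiff the wall is.

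The 27 libraries held 3692975 to 15374607 counts each, and stamen libraries 3989223 to 12723197. Levels are given as CPM, the counts-per-million of a locus in its library, with library sizes adjusted by the TMM method within a tissue. ARF8 was at 18.1 and 19.3 CPM in arf6arf8 stamens, 55.9 to 74.6 in wild-type stamens and 263 to 504 in mARF8 stamens, and in gynoecia the same order held without overlap. The summed level of AP3 and PI, identity genes of petals and stamens, was 902 to 1158 CPM in stamens and 8.45 to 30.3 in gynoecia, and that of 7 carpel and ovule markers was 13.8 to 25.6 CPM in stamens and 264 to 554 in gynoecia. Changes are log2 fold changes with a standard error (SE), and a gene is called where edgeR's quasi-likelihood p, adjusted by Benjamini and Hochberg over all loci tested, is under 0.05. The labels do not say that replicates came from separate plants, so these p-values measure the spread between samples, which may be technical. In whole stamens, fewer pollen cells and less of a transcript per cell cannot be told apart.

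All 10 genes lie on the minus strand of their chromosomes in the RefSeq TAIR10.1 annotation and have 1 to 5 annotated exons. ANX1 spans chr3:1273057-1276945, ANX2 chr5:10719127-10722361, BUPS1 chr4:18221993-18225238 and BUPS2 chr2:9202494-9205471. LRX8 spans chr3:6558964-6562377, LRX9 chr1:18317259-18320210, LRX10 chr2:6917514-6920319 and LRX11 chr4:16278941-16282048. VGD1 spans chr2:19327853-19330197 and PPME1 chr1:26343275-26345058. Because all 10 genes fell in mARF8 stamens, as described next, the 250 bases before the annotated start are shown for a receptor, a wall protein and both pectin enzymes whose windows overlap no other gene. They are ANX2 (chr5:10722362-10722611), LRX9 (chr1:18320211-18320460), VGD1 (chr2:19330198-19330447) and PPME1 (chr1:26345059-26345308), each read 5′ to 3′ on the minus strand. Capitals mark AGAAA, a motif known from pollen promoters of tomato, and TGTC, the core of the sites that auxin response factors bind, in either orientation, so that TTTCT and GACA are also capitals.
ANX2: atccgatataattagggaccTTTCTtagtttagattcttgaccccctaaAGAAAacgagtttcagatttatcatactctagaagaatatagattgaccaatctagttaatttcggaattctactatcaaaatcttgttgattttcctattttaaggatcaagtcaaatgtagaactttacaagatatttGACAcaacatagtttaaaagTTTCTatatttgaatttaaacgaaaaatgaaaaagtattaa
LRX9: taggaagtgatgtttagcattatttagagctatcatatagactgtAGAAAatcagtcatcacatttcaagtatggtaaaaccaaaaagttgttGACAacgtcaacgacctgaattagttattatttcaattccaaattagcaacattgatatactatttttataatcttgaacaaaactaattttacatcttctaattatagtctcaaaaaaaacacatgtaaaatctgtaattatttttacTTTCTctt
VGD1: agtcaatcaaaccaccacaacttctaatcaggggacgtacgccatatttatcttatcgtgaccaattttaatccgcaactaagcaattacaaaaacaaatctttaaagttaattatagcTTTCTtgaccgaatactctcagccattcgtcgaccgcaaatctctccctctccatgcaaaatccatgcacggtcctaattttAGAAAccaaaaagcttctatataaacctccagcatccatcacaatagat
PPME1: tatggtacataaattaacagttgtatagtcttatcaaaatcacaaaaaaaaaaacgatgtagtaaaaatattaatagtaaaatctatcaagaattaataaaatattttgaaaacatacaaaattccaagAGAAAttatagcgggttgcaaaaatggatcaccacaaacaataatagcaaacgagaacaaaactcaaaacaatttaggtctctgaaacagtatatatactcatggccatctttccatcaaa
AGAAA on either strand was found in 10 of 10 member windows and in 82.5% of the 27443 windows of the same length before protein-coding genes. TGTC was found in 6 of 10 member windows against 74.8% of all windows. The windows of BUPS2, LRX8, VGD1 and PPME1 have none, so a receptor gene and a wall protein gene lack it too. The longer forms TGTCTC, which contains TGTC, and TGTCGG were found in 1 member window (LRX11) and in 0, against 10.9% and 4.16% of all windows, and GTGA in 9 against 77.5%. These are matches of letters within the window and nothing more.

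Among wild-type stamens the 2 pectin methylesterase transcripts were by far the most abundant of the 10. Per kilobase of coding length, VGD1 stood at 4570, 5703 and 5889 CPM in order of level (lowest, median, highest library) and PPME1 at 4194, 5444 and 5589, and these ranges overlap. BUPS1 followed with 76.6 to 97.9 CPM per kilobase, LRX8 with 50.1 to 54.5 and LRX9 with 42.4 to 46.7, with no overlap between these 3. ANX1 (22.3 to 34.3) and LRX10 (32.6 to 35.9) overlapped, as did LRX11 (13.4 to 17.7), BUPS2 (15.1 to 16.3) and ANX2 (14.3 to 17.7). BUPS1 was thus above BUPS2, and ANX1 above ANX2, in each of the 3 libraries.

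The 4 receptor genes were lower in every mARF8 stamen library than in any wild-type library, as were 21.1% of all loci tested. ANX1 was at 86.6, 57.0 and 87.6 CPM in wild type 1 to 3, at 46.6 and 38.5 in arf6arf8 1 and 2, and at 12.2, 7.26, 25.0 and 16.2 in mARF8 1 to 4. ANX2 was at 38.1, 36.8 and 45.7 CPM in wild type, at 5.74 and 8.24 in arf6arf8, and at 1.046, 0.177, 6.44 and 2.13 in mARF8. The groups of these libraries do not overlap for ANX1. Over all loci tested, 25.9% had arf6arf8 below every wild-type library and 21.7% had every mARF8 library below arf6arf8. For ANX2, mARF8 3 lies between both arf6arf8 libraries and all other mARF8 libraries lie below them. BUPS1 was at 258, 202 and 255 CPM in wild type, at 120 and 100.5 in arf6arf8, and at 32.6, 8.68, 91.1 and 35.7 in mARF8. BUPS2 was at 42.7, 39.5 and 42.0 CPM in wild type, at 22.5 and 17.7 in arf6arf8, and at 6.80, 2.48, 27.9 and 8.17 in mARF8. mARF8 3 was the highest mARF8 library for each receptor gene, and for BUPS2 it was above both arf6arf8 libraries. Against wild type, mARF8 stamens gave log2 fold changes of −2.32 for ANX1 (SE 0.35, adjusted p = 0.00293) and −3.86 for ANX2 (SE 0.60, adjusted p = 0.00327). The change was −2.49 for BUPS1 (SE 0.57, adjusted p = 0.0127) and −1.80 for BUPS2 (SE 0.58, adjusted p = 0.0388).

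The 4 wall protein genes were also below wild type in every mARF8 stamen library, against the same 21.1% of loci, and LRX11 and LRX10 had the lowest mean shares of wild type of the whole set. LRX8 was at 156, 144 and 152 CPM in wild type 1 to 3, at 20.5 and 34.8 in arf6arf8 1 and 2, and at 1.40, 3.72, 37.4 and 10.48 in mARF8 1 to 4. LRX9 was at 119, 109 and 108 CPM in wild type, at 34.6 and 37.4 in arf6arf8, and at 8.20, 3.90, 37.8 and 14.7 in mARF8. In both genes mARF8 3 stood just above the higher arf6arf8 library, and the other mARF8 libraries stood below both. LRX10 was at 71.1, 78.4 and 73.5 CPM in wild type, at 5.04 and 11.6 in arf6arf8, and at 0.523, 0.708, 12.6 and 3.38 in mARF8. LRX11 was at 33.9, 37.2 and 28.1 CPM in wild type, at 2.79 and 5.06 in arf6arf8, and at 0, 0.354, 3.78 and 0.889 in mARF8. The 0 of LRX11 in mARF8 1 stands for no read in a library where 3 reads would be 0.531 CPM before scaling, a limit that covers counting error only. Against wild type, mARF8 stamens gave −3.44 for LRX8 (SE 0.78, adjusted p = 0.0124), −2.75 for LRX9 (SE 0.57, adjusted p = 0.00886), −3.95 for LRX10 (SE 0.73, adjusted p = 0.00609) and −4.45 for LRX11 (SE 0.66, adjusted p = 0.00282).

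The pectin methylesterase genes fell too, and with BUPS2 they had the highest share of the wild-type mean left in mARF8 stamens. VGD1 was at 10196, 8171 and 10530 CPM in wild type 1 to 3, at 6557 and 5613 in arf6arf8 1 and 2, and at 2772, 706, 5200 and 2371 in mARF8. PPME1 was at 5913, 4554 and 6070 CPM in wild type, at 4040 and 3300 in arf6arf8, and at 1343, 278, 2829 and 1177 in mARF8. The 3 groups do not overlap for either gene, with mARF8 lowest. Such separation was common over all loci tested. It held for 25.9% with arf6arf8 below wild type, 21.1% with mARF8 below wild type and 21.7% with mARF8 below arf6arf8. Against wild type, mARF8 stamens gave −1.80 for VGD1 (SE 0.52, adjusted p = 0.0276) and −1.97 for PPME1 (SE 0.59, adjusted p = 0.0296). The reads of both can be shared in part, since 2.78% of the 50-base stretches of VGD1 also occur in its neighbour VGDH1 (AT2G47030) and 6.07% of those of PPME1 in AT5G07410, while the other 8 members have none elsewhere in the genome. VGDH1 reads per VGD1 read were 0.140 to 0.186 in wild-type, 0.118 to 0.130 in arf6arf8 and 0.0150 to 0.0734 in mARF8 stamens, and AT5G07410 reads per PPME1 read were 1.40 to 1.53, 1.40 to 1.46 and 1.62 to 2.29 in the same groups.

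**Figure D1:**
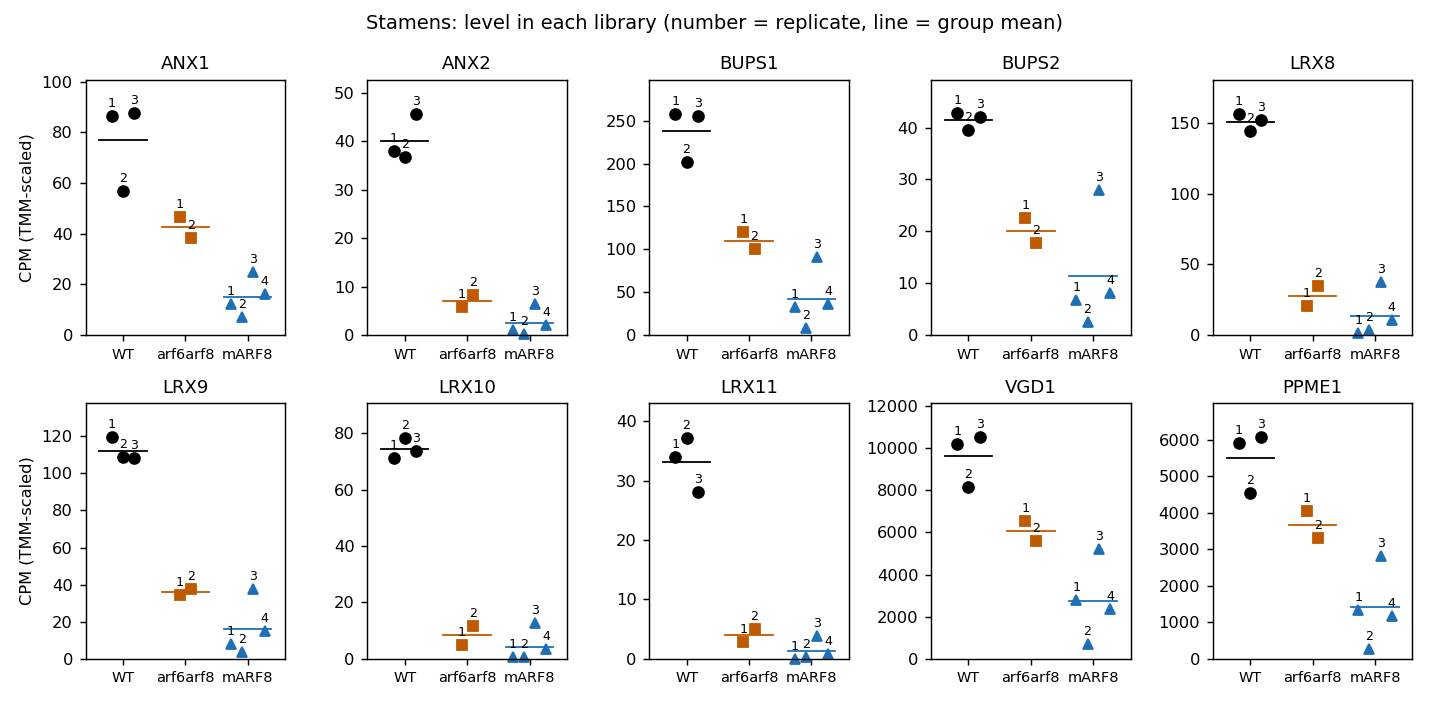
TMM-scaled CPM (vertical axis, from 0, a scale of its own for each gene) of the 10 genes in the 9 stamen libraries, with points numbered by replicate and a line at each group's mean. In every panel the 3 wild-type points lie above all arf6arf8 and mARF8 points, and mARF8 3 is the highest of the 4 mARF8 points.

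In mARF8 stamens against wild type, 10 of 10 members were called lower and 0 higher, where 16.6% of the 18828 loci tested were called lower and 20.4% higher. The median log2 fold change of the 10 was −2.62, and that of all loci 0.09. BUPS2, VGD1 and PPME1 lost their calls without any 1 of wild type 1, 2 or 3 or mARF8 1 or 4 (highest adjusted p 0.0958, 0.0764 and 0.0797), which left 7 members called where 7.82% to 13.1% of loci were called lower. With stamen libraries numbered up to 23 in the labels, which drops wild type 3 and mARF8 4, 3 members were called (ANX1, ANX2 and LRX11) where 3.06% of loci were lower, and with line 3B alone 9 were (BUPS2 at adjusted p = 0.0824) where 13.6% were.

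In arf6arf8 stamens, 0 of 10 members passed the test against wild type, although each of the 10 was below wild type in both libraries. Of all loci 3.04% were called lower and 1.34% higher, and 25.9% had both arf6arf8 libraries below every wild-type library. The median log2 fold change of the members was −1.38, and that of all loci 0.01. Of the members, 5 had an unadjusted p under 0.05, a level at which all loci were not counted. The estimates were −3.17 for LRX10 (SE 0.89, adjusted p = 0.0883), −3.09 for LRX11 (SE 0.74, adjusted p = 0.0525), −2.53 for ANX2 (SE 0.69, adjusted p = 0.0783) and −2.45 for LRX8 (SE 0.97, adjusted p = 0.205). LRX9 followed at −1.64 (SE 0.69, adjusted p = 0.232), and BUPS1, BUPS2, ANX1, VGD1 and PPME1 lay at −1.11, −1.04, −0.85, −0.66 and −0.59 with adjusted p of 0.289 to 0.678. With arf6arf8 and wild type alone in the fit, all 10 were called lower where 12.6% of loci were. The main fit shares an estimate of spread over all stamen libraries, those of mARF8 included. Chi-square per degree of freedom, a measure of difference between libraries, was 5.99 to 74.1 over mARF8 pairs. It was 3.64 to 8.50 over wild-type pairs and 5.74 for the arf6arf8 pair. The part of this spread in the count of 0 was not tested. DESeq2 called ANX2 and LRX11 lower where it called 5.43% of loci, and median-of-ratios scaling or no filter on low counts called LRX11.

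The shares of the wild-type mean are given side by side for both genotypes, which rest on the same 3 wild-type libraries, and differences between genes were not tested. As a share of the wild-type mean, the arf6arf8 mean was 11.2% for LRX10, 11.9% for LRX11, 17.39% for ANX2 and 18.3% for LRX8. It was 32.1% for LRX9, 46.2% for BUPS1, 48.5% for BUPS2, 55.2% for ANX1, 63.2% for VGD1 and 66.6% for PPME1. In mARF8 the mean was 3.80% for LRX11, 5.78% for LRX10, 6.09% for ANX2 and 8.79% for LRX8. It was 14.4% for LRX9, 17.63% for BUPS1, 19.7% for ANX1, 25.5% for PPME1, 27.4% for BUPS2 and 28.7% for VGD1. LRX8, LRX10, LRX11 and ANX2 had the lowest shares in both genotypes. Within the receptor pair ANX1 and ANX2, ANX2 had the lower share in each of the 6 mutant libraries. ANX1 overlaps TPR10 (AT3G04710) and AT3G04700 on the opposite strand, whose reads cannot be told from its own without a stated strand setting. In mARF8 stamens TPR10 was at 12.5 to 21.4 CPM and ANX1 at 7.26 to 25.0. The part of such reads in the share of ANX1 was not tested.

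**Figure D2:**
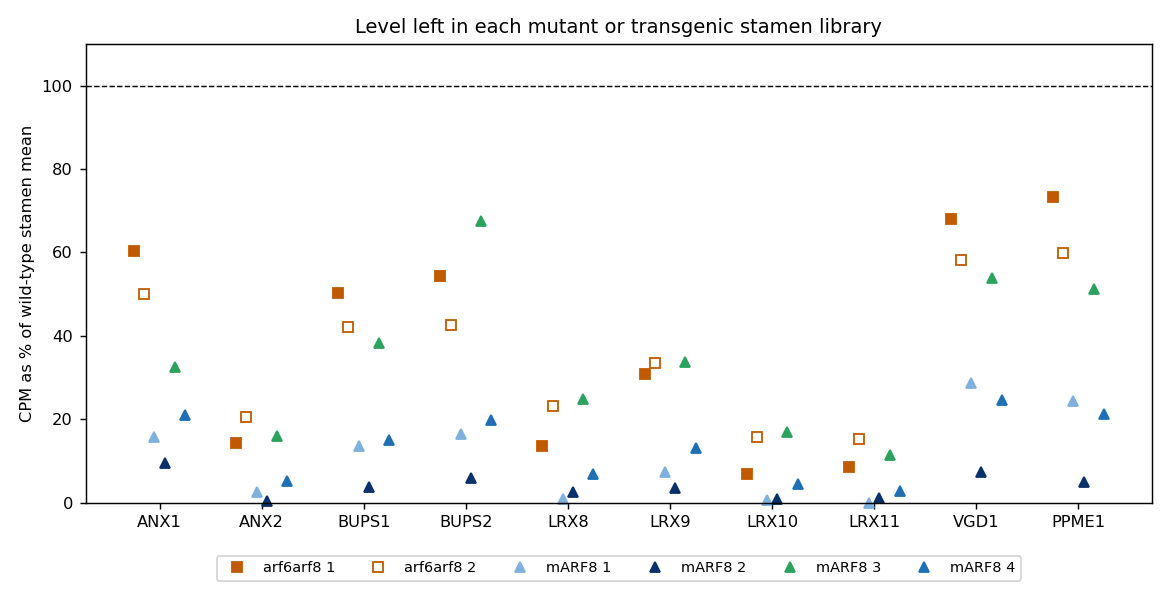
CPM of each gene in each arf6arf8 and mARF8 stamen library as a percentage of the wild-type stamen mean (dashed line at 100). Every point lies under 100, from 0% for LRX11 in mARF8 1 to 73.3% for PPME1 in arf6arf8 1, and the points of LRX10 and LRX11 all lie under 20%.

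Compared directly, mARF8 stamens were called lower than arf6arf8 stamens for 1 of 10 members, ANX1 (log2 fold change −1.46, SE 0.37, adjusted p = 0.0242), where 6.28% of all loci were. All 10 estimates were negative, from −1.46 to −0.76, with a median of −1.24 against −0.01 for all loci. Every mARF8 library lay below both arf6arf8 libraries for 4 of 10 members (ANX1, BUPS1, VGD1 and PPME1), as for 21.7% of loci, and the other 6 genes overlap through mARF8 3. Without mARF8 3 all 10 were called lower where 15.3% of loci were, and without arf6arf8 1 or 2 or mARF8 1 or 4 the ANX1 call was lost (highest adjusted p 0.178), which left 0.

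**Figure D3:**
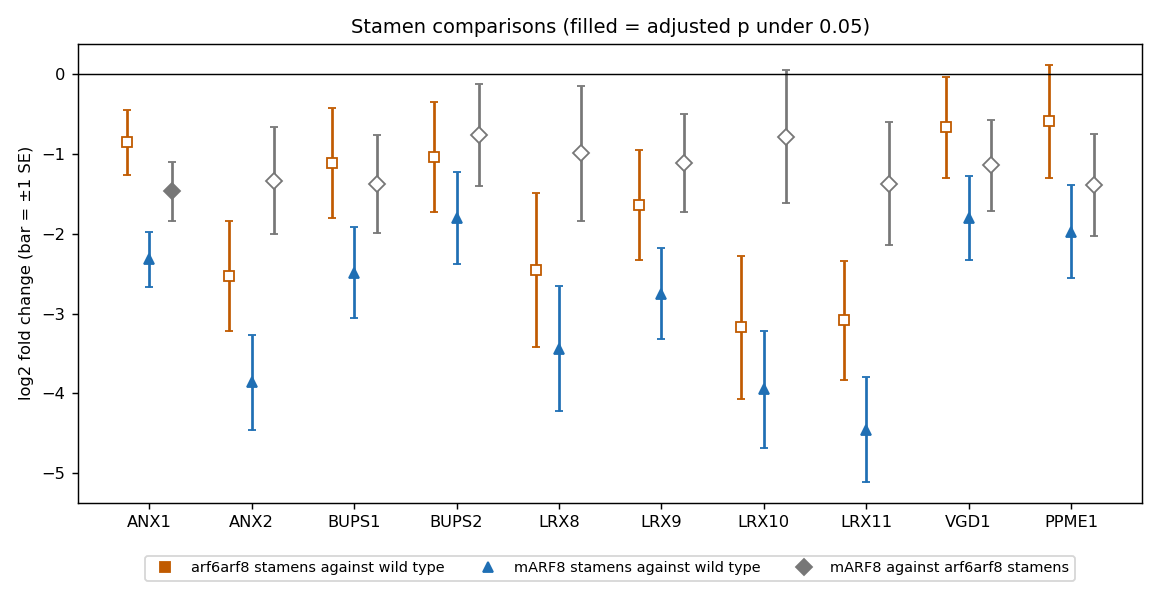
Log2 fold change (points) with 1 SE on each side (bars) of the 10 genes in the 3 stamen comparisons, with filled points where the adjusted p is under 0.05. All 10 points are filled for mARF8 against wild type, none for arf6arf8 against wild type, and 1, ANX1, for mARF8 against arf6arf8.

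The mARF8 libraries were far apart from each other in all 10 genes. As a share of the wild-type mean, mARF8 3 ran from 11.4% (LRX11) to 67.4% (BUPS2), mARF8 4 from 2.69% (LRX11) to 24.6% (VGD1), mARF8 1 from 0 (LRX11) to 28.8% (VGD1) and mARF8 2 from 0.441% (ANX2) to 9.42% (ANX1). By title, libraries 1 and 3 are line 3B. Some other levels also differed between the mARF8 libraries. How many of all loci ran in the same order over these libraries was not counted. ARF8 itself was at 483, 504, 263 and 463 CPM in mARF8 1 to 4, lowest in the library with the highest member levels. The summed CPM of 8 heat shock genes was 115, 530, 61.0 and 118 in mARF8 1 to 4 against 18.4 to 74.7 in wild type and 126 and 189 in arf6arf8, and 1 of the 5 heat shock genes tested, HSP17.4 (log2 fold change 2.90, SE 1.01, adjusted p = 0.0499), was called higher in mARF8, while HSP90.1 had an adjusted p of 0.0532. The summed CPM of 13 tapetum markers was 148, 238, 128 and 152 in mARF8 1 to 4 against 53.4 to 72.9 in wild type and 120 and 112 in arf6arf8. Of the 5 tapetum markers tested, AMS (1.46, SE 0.16, adjusted p = 0.00108) and LAP6 (0.83, SE 0.23, adjusted p = 0.0226) were called higher in mARF8 and AMS in arf6arf8, and 3 to 7 of the 13 were at 0 in each stamen library. Of 5 carpel and ovule markers tested, SPT (−0.87, SE 0.19, adjusted p = 0.0108) and SHP2 (−1.25, SE 0.36, adjusted p = 0.0260) were called lower in mARF8. Of all 18828 loci tested, 20.4% were called higher and 16.6% lower in mARF8, so 1 or 2 calls among 5 genes say little. In arf6arf8, 1.34% were called higher. The part of transgene level, stress transcripts or tapetum RNA in the member levels was not tested.

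Other genes of the same signalling route and wall were lower in mARF8 stamens as well. For scale, 16.6% of all 18828 loci tested were called lower and 20.4% higher, with a median log2 fold change of 0.09. The lists were chosen with earlier results of these data known, so their counts are not independent of them. In the order below, 10 of 10, 16 of 16, 18 of 18, 7 of 10 and 10 of 10 were called higher in wild-type stamens than gynoecia. Of all loci 41.4% were, so all loci are not a matched scale. Of 10 integrity signalling partners, 10 were called lower (median log2 fold change −2.11). These include the co-receptor gene LLG2 (AT2G20700, −2.33, SE 0.39, adjusted p = 0.00426) and MRI (AT2G41970, −1.55, SE 0.30, adjusted p = 0.00717), a cytoplasmic kinase downstream of the ANX receptors. Of 16 genes of the ROP polarity module that were tested, 14 were lower and 1 higher (median −1.72). ROPs are small GTPases that direct tip growth, and the lowest adjusted p were those of the exchange factor gene ROPGEF11 (AT1G52240, −3.69, SE 0.47, adjusted p = 0.00175) and the receptor kinase gene PRK4 (AT3G20190, −1.89, SE 0.28, adjusted p = 0.00293). The gene called higher was RIC4 (AT5G16490), a ROP effector gene, at 1.08 (SE 0.21, adjusted p = 0.00750). Of 18 other pollen pectin enzyme genes tested, 18 were lower (median −3.59), among them PME23 (AT3G06830, −3.48, SE 0.32, adjusted p = 0.000526) and the pectate lyase gene AT59 (AT1G14420, −4.68, SE 0.63, adjusted p = 0.00210). Of 10 other pollen tube wall genes, 7 were lower (median −1.90), led by the cellulose synthase-like genes CSLD1 (AT2G33100, −2.61, SE 0.28, adjusted p = 0.000931) and CSLD4 (AT4G38190, −1.94, SE 0.48, adjusted p = 0.0158). Of 10 late pollen regulators tested, 8 were lower (median −1.41), led by AGL65 (AT1G18750, −2.35, SE 0.31, adjusted p = 0.00196), a MADS factor gene of pollen, and MYB101 (AT2G32460, −1.17, SE 0.20, adjusted p = 0.00455), a MYB factor gene of the pollen tube. In arf6arf8 stamens these lists had 0, 2, 2, 1 and 0 genes called lower and 0 called higher, in the same order. Of all loci tested there, 3.04% were called lower and 1.34% higher, so counts of 0 or 1 in a list say little. The 5 called genes were ROPGEF11, PRK4, PME23, AT59 and CSLD1. For the signalling partners and late regulators 3 and 3 were lower at an unadjusted p under 0.05, a level at which all loci were not counted.

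**Figure D4:**
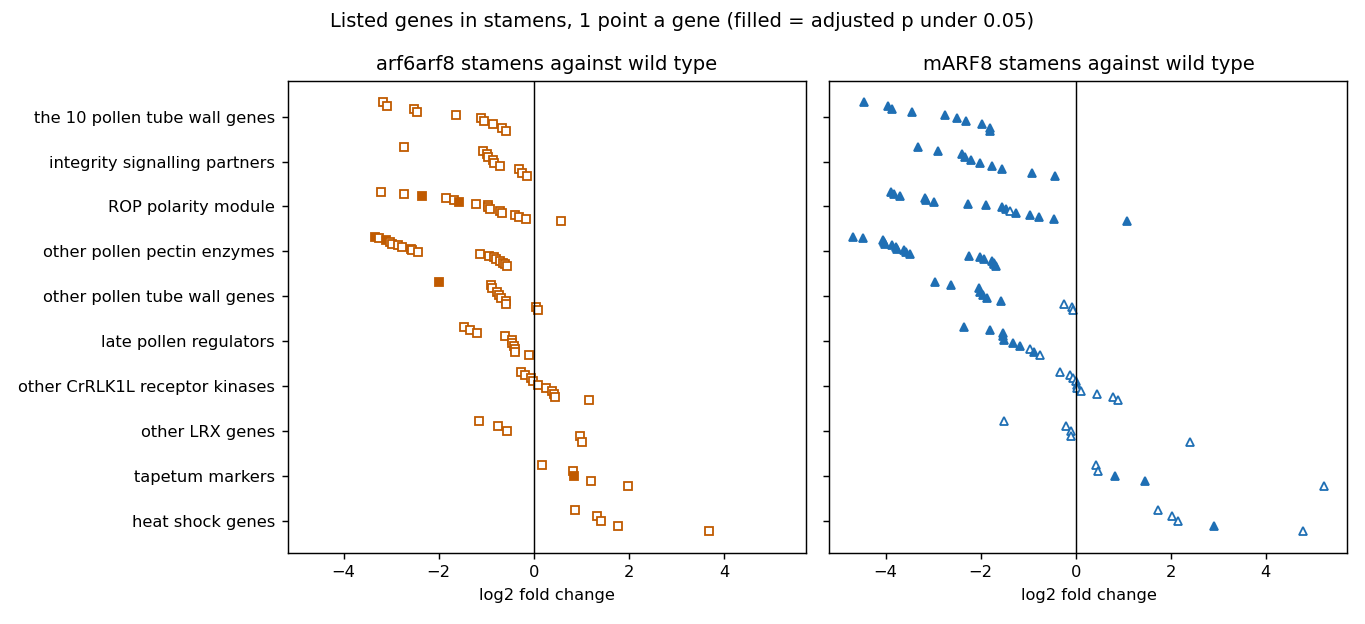
Log2 fold change of each tested gene of 10 lists in arf6arf8 (left) and mARF8 (right) stamens against wild type, with filled points where the adjusted p is under 0.05. On the right the 10 pollen tube wall genes, the signalling partners and the other pollen pectin enzymes are filled and below 0 throughout, while no CrRLK1L or LRX gene outside the 10 is filled.

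The relatives of these receptors and wall proteins did not pass the test, though LRX7 lay below wild type in all arf6arf8 and mARF8 stamen libraries. Of 10 other CrRLK1L genes tested, edgeR called 0 in mARF8 stamens, with 2 higher and 0 lower at an unadjusted p under 0.05 (median 0.03). The smallest adjusted p were those of CVY1 (AT2G39360, 0.89, SE 0.32, adjusted p = 0.0540) and MDS1 (AT5G38990, 0.79, SE 0.29, adjusted p = 0.0557). FER (AT3G51550), the best known member, which acts in roots and in the female gametophyte, stood at a median of 46.0 CPM per kilobase in wild-type and 41.6 in mARF8 stamens, and of 91.8 in wild-type gynoecia. THE1 (AT5G54380) stood at 20.9 and 18.9 CPM per kilobase in wild-type and mARF8 stamens. CVY1, MDS1, HERK1 (AT3G46290), HERK2 (AT1G30570), ERU (AT5G61350), ANJ (AT5G59700), AT5G24010 and AT2G23200 had medians of 0.901 to 9.62 and 1.01 to 9.29 CPM per kilobase in the same groups. Of 5 other LRX genes tested, edgeR called 0 in mARF8 stamens, with 1 higher and 1 lower at an unadjusted p under 0.05 (median −0.10). For neither family were all loci counted at that unadjusted level. LRX7 (AT5G25550) was more abundant in wild-type stamens than LRX8 to LRX11, with a median of 205 CPM per kilobase, against 0.398 in wild-type gynoecia. Its estimate in mARF8 was −1.52 (SE 0.54, adjusted p = 0.0524). Like the members, LRX7 lay below every wild-type library in both genotypes, as did 25.9% of loci in arf6arf8 and 21.1% in mARF8. It was at 217 to 298 CPM in wild-type, 155 to 199 in arf6arf8 and 18.8 to 171 in mARF8 stamens. LRX6 (AT3G22800) stood at 0.176 and 0.981 CPM per kilobase in wild-type and mARF8 stamens (2.39, SE 1.03, adjusted p = 0.0947). LRX3 (AT4G13340) and LRX4 (AT3G24480), wall proteins of vegetative tissue, stood at 33.1 and 33.3 CPM per kilobase in wild-type and 21.2 and 26.9 in mARF8 stamens, and LRX5 (AT4G18670) at 10.9 and 11.1.

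Over the 9 stamen libraries, the log2 CPM of pairs of members had a Pearson r of 0.808 to 0.999 with a median of 0.952 (45 pairs), a description in which libraries, depth and group differences are shared. The 6 loci outside the members with the highest r to their mean, among 12102 loci, were SFH12 (AT4G36490, 0.998), TBL22 (AT3G28150, 0.998), AT3G26860 (0.998), PRK3 (AT3G42880, 0.997), AT5G07420 (0.996) and AT4G03290 (0.996). SFH12, as an example, stood at 87.5 to 103 CPM in wild type, 22.6 and 23.6 in arf6arf8 and 1.59 to 25.4 in mARF8. Such likeness is common in these stamens, since 700 loci had an r of at least 0.95 and 1814 of at least 0.9. Ratios of counts within a library are a further description, with no test between genes. For each VGD1 read there were 0.557 to 0.580 PPME1 reads in wild-type libraries, 0.588 to 0.616 in those of arf6arf8 and 0.394 to 0.544 in those of mARF8. LRX8 reads per VGD1 read were 0.0145 to 0.0176, 0.00312 to 0.00621 and 0.000503 to 0.00720 in the same groups, with wild type above all others.

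In gynoecia the members were low, and wild-type stamens were called higher than wild-type gynoecia for 10 of 10, where 41.4% of 20665 loci were. Stamens and gynoecia also differed in flower stage, so tissue and stage cannot be told apart. Scaled over all 27 libraries, VGD1 stood at 10731 to 13827 CPM in wild-type stamens and 1.64 to 11.1 in wild-type gynoecia (log2 fold change 10.88, SE 1.09, adjusted p = 3.26e-09). PPME1 stood at 5981 to 7971 against 0.387 to 5.07 CPM (11.20, SE 1.26, adjusted p = 2.11e-08), and BUPS1 at 265 to 335 against 2.11 to 4.37 (6.83, SE 0.48, adjusted p = 7.34e-12). The smallest differences were those of ANX1, 74.9 to 115 against 12.0 to 16.5 CPM (2.79, SE 0.24, adjusted p = 1.63e-10), and LRX8, 189 to 201 against 9.58 to 11.51 CPM (4.24, SE 0.46, adjusted p = 1.33e-08). ANX2 had 0 to 2 counts in each wild-type gynoecium library, and the other members lay between these values, at 5.33 to 6.57 on the log2 scale.

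Within gynoecia, ANX1 and LRX8 stood at 9.99 to 18.7 and 9.39 to 14.4 CPM over the 18 libraries. In the annotation ANX1 overlaps AT3G04700 and TPR10 (AT3G04710) on the opposite strand, whose reads cannot be told from those of ANX1 without a stated strand setting, and LRX11 overlaps AT4G03355, which was not analysed here. AT3G04700 was at 5.10 to 8.27 CPM in wild-type, 0.776 and 2.08 in arf6arf8 and 0.174 to 1.84 in mARF8 stamens, and at 0.268 to 1.14 in gynoecia. There were 0.298 to 0.582 ANX1 reads per TPR10 read in gynoecia, 5.12 to 8.49 in wild-type stamens and 0.339 to 2.01 in mARF8 stamens, while TPR10 itself was at 10.2 to 21.4 CPM in stamens and 28.8 to 40.1 in gynoecia. VGD1 was at 67.0 CPM in axr3 1 and 50.9 in arf6arf8 2 and 1.40 to 16.8 in the other 16 libraries. PPME1 was at 43.4 and 29.7 CPM in the same 2 libraries, at 3.89 to 8.95 in the others with a label number up to 31, and at 0 to 0.438 (0 to 4 reads) in the 7 libraries numbered from 32. These 7 include wild type 4, axr3 3 and 4 and all arf6axr3 libraries, and VGD1 had 7 to 247 reads in them. ANX2 did not pass the filter on low counts, and had at most 4 reads per library except 17 in arf6axr3 2.

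**Figure D5:**
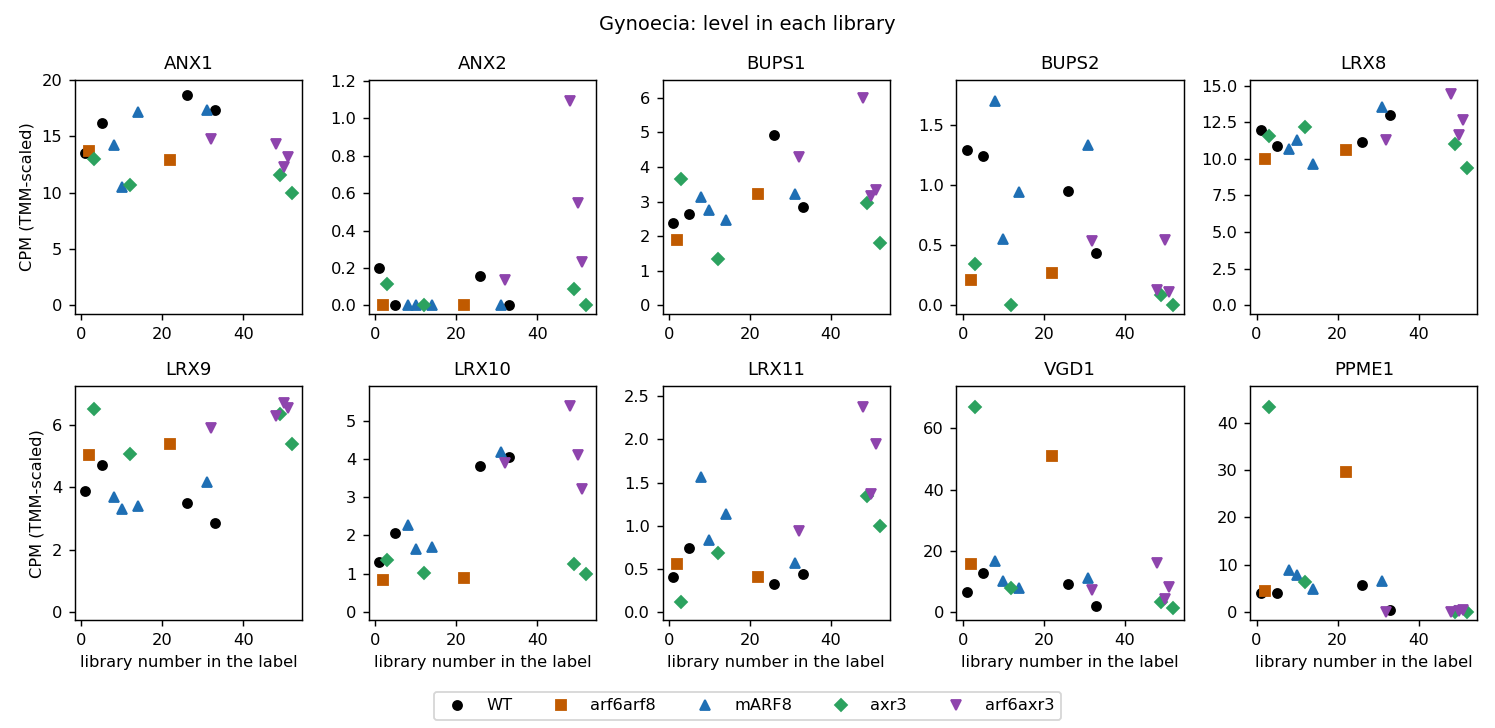
TMM-scaled CPM (vertical axis, a scale of its own for each gene) of the 10 genes in the 18 gynoecium libraries against the library number in the label, with a symbol and colour for each genotype. ANX1 and LRX8 lie between 9.39 and 18.7 CPM at all numbers, PPME1 is near 0 from number 32 on, and axr3 1 (number 3) and arf6arf8 2 (number 22) stand high for VGD1 and PPME1.

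Of the 9 members tested in gynoecia, 4 were called in axr3, 1 in arf6arf8, 1 in arf6axr3 and 0 in mARF8. In axr3, 4 of 9 were called where 15.7% of 18616 loci were: BUPS2 (−2.83, SE 0.69, adjusted p = 0.00903), LRX10 (−1.20, SE 0.37, adjusted p = 0.0344) and ANX1 (−0.52, SE 0.13, adjusted p = 0.0120) were lower and LRX9 (0.64, SE 0.15, adjusted p = 0.00809) was higher. BUPS2 stood at 1.29, 1.24, 0.956 and 0.438 CPM in wild type 1 to 4 and at 0.342, 0, 0.0897 and 0 in axr3, which is 0 to 3 reads per axr3 library. LRX9 stood at 3.88, 4.72, 3.51 and 2.84 CPM in wild type, at 6.51, 5.08, 6.37 and 5.39 in axr3, and at 5.90, 6.31, 6.71 and 6.54 in arf6axr3. It was the 1 member of 9 called in arf6axr3 (0.75, SE 0.15, adjusted p = 0.0140), where 1.72% of loci were, and without arf6axr3 1 that count was 2 where 1.99% were. In arf6arf8, 1 of 9 was called, LRX10 (−1.66, SE 0.44, adjusted p = 0.0199), where 11.2% of loci were. LRX10 stood at 1.29, 2.07, 3.83 and 4.05 CPM in wild type and at 0.839 and 0.874 in arf6arf8. Its level also moved with the library number, since wild-type and mARF8 libraries were at 1.29 to 2.27 CPM up to number 14 and 3.83 to 4.19 from number 26, while axr3 was at 0.999 to 1.37 throughout, and the part of this shift in the calls was not tested. LRX10 was no longer called without wild type 4 (adjusted p = 0.0609) or either arf6arf8 library, and the count of members was 0 without arf6arf8 1 or 2 and 2 without wild type 2, where 9.03% of loci were. In mARF8, edgeR and DESeq2 both called 0 of 9, where edgeR called 0.688% of loci. At an unadjusted p under 0.05, a level at which all loci were not counted, there were 0 too.

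With library numbers up to 31 alone, 0 members were called in arf6arf8 and axr3, and with numbers from 32 alone 0 in axr3 and arf6axr3. These fits tested 7 members, with BUPS2 among those left out, and called 7.73% of loci in axr3 up to 31. The shares of loci called in the other fits are not given here. From 32 on wild type is 1 library, assumed to vary like the other groups, so a count of 0 there says little. In axr3, LRX10 did not pass without wild type 3 or 4 or any 1 axr3 library (highest adjusted p 0.129).

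The effect of mARF8 was tested for a difference between the tissues as an interaction over all 27 libraries, with ANX2 left out for want of gynoecium reads. It was lower in stamens than in gynoecia for 6 of 9 members (ANX1, BUPS1 and LRX8 to LRX11), where 11.7% of 20665 loci were. In mARF8 gynoecia 1 to 4, ANX1 stood at 14.2, 10.48, 17.2 and 17.3 CPM and LRX9 at 3.69, 3.31, 3.40 and 4.19, all inside the wild-type range except ANX1 in mARF8 2, which lay below it. The largest difference was that of LRX11, −5.59 on the log2 scale (SE 0.97, adjusted p = 0.000351), followed by LRX10 at −3.87 (SE 0.85, adjusted p = 0.00239) and LRX8 at −3.37 (SE 0.67, adjusted p = 0.00106). Part of the LRX11 value comes from gynoecia, where few reads gave 0.319 to 0.746 CPM in wild type and 0.571 to 1.56 in mARF8. Its edgeR estimate there was 1.07 and was not called (SE 0.55, adjusted p = 0.422). ANX1 differed by −2.22 (SE 0.34, adjusted p = 0.000104), BUPS1 by −2.45 (SE 0.78, adjusted p = 0.0245) and LRX9 by −2.72 (SE 0.64, adjusted p = 0.00366). The BUPS1 call was lost without mARF8 gynoecia 1 or 4 (highest adjusted p 0.0583), and without mARF8 stamens 3 all 9 members were called where 16.5% of loci were. For arf6arf8, 1 of 9, LRX9, was called (−2.08, SE 0.64, adjusted p = 0.04999), where 3.78% of loci were, and it was called in no fit that left out 1 library of the 4 groups.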

How the data were processed

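Messenger RNA was sequenced as single 50-base reads and deposited as raw read counts per locus for 27 libraries. Per the submitters' processing notes the authors used TopHat2, HTSeq, edgeR and TAIR10, with versions and strand setting not given in the sources used here. From the counts, edgeR 4.0.16 (R 4.3.3, limma 3.58.1) was run on loci kept by filterByExpr (minimum count 10, minimum total 15) with TMM scaling, quasi-likelihood tests and Benjamini-Hochberg adjustment over all loci. The 9 stamen libraries (18828 loci), the 18 gynoecium libraries (18616) and all 27 together (20665, for tissue differences) were fitted separately. The scripts were checked on simulated counts. Alternatives were DESeq2 1.42.0, other scalings and filters, fits of the compared groups alone, left-out libraries, replicate blocks, library-number splits and line 3B. The gynoecium number splits and the tests of a difference between tissues were added after seeing the data. The members and gene lists were chosen with earlier results of these data known. Named genes are the members, the 2 tested genes of each list with the smallest adjusted p in mARF8 stamens plus called genes of opposite direction, relatives allowed above 1 CPM in wild-type stamens, and the 6 loci most like the members. Coordinates and promoters are from RefSeq TAIR10.1. Counting-error limits take 3 reads as the floor, and no 2 libraries of a group agreed within sampling noise.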

Additional observations from a re-analysis of the deposited data

Results flagged for a closer look

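VGD1 at 67.0 CPM and PPME1 at 43.4 CPM in axr3 gynoecia 1 stood far from the other 3 axr3 gynoecium libraries, which held 1.40 to 7.79 and 0 to 6.27 CPM. They were 2 of 49 sets of 4 libraries tested for a lone extreme value, where chance gives about 1 in 20 for separate draws. Both values came from the same library, so they are not separate draws. VGDH2 (AT3G62170) and AT5G07410 were high there too, at 45.8 and 54.2 CPM. The other axr3 gynoecium libraries held 0.399 to 7.79 and 0.269 to 8.98 CPM of these loci. Other values stood apart because the effect of a genotype differed between stamens and gynoecia in a test of that difference. For mARF8 these were ANX1 (−2.22), BUPS1 (−2.45), LRX8 (−3.37), LRX9 (−2.72), LRX10 (−3.87) and LRX11 (−5.59), each a log2 difference with the stamen effect the lower. For arf6arf8 it was LRX9 (−2.08).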

How the results depend on the processing

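The count of 10 members called lower in mARF8 stamens was 7 to 10 with 1 library left out and 3 with stamen libraries numbered up to 23. DESeq2 gave 9, with no adjusted p for LRX8. In arf6arf8 stamens where 0 were called, 10 were with only the groups compared, 2 by DESeq2, 1 under median-of-ratios scaling and 1 unfiltered. The count stayed at 0 with any wild-type library left out. No mARF8 library was left out in that check, although mARF8 libraries share the estimate of spread, so it says little about the 0. For mARF8 against arf6arf8 stamens the count of 1 became 0 with only the groups compared, 0 with library numbers up to 23, and 0 to 10 over left-out libraries. In gynoecia, with only the groups compared, 2 members were called in arf6arf8, 1 in axr3 and 0 in arf6axr3. The share of all loci called in these gynoecium fits is not given here, so the counts alone say little about the members. Library numbers up to 31 gave 0 in arf6arf8 and 0 in axr3, and numbers from 32 gave 0 in axr3 and 0 in arf6axr3. Over left-out libraries the range was 0 to 2 for arf6arf8, 0 to 0 for mARF8, 3 to 4 for axr3 and 1 to 2 for arf6axr3. Where 1 arf6arf8 library remained, it was assumed to vary like the other groups. The arf6arf8 interaction count of 1 was 0 with no filter and 0 to 0 over left-out libraries, and that of mARF8 5 to 9. The tissue count stayed at 10. The cause of these moves was not tested, apart from the fewer libraries in some fits. Shares of all loci called lower moved between fits too. In arf6arf8 stamens the share was 3.04%, and 12.6% with only the groups compared. In mARF8 stamens it was 16.6%, and 3.06% with library numbers up to 23. A count with no share given for its fit cannot be set against all loci. Of the stamen values and the called gynoecium values recomputed, 0 reversed their sign.

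Same-numbered stamen libraries had a correlation of deviations of −0.118 to 0.295 over 7 pairs, with a median of 0.165. Pairs with different numbers had −0.279 to 0.247 over 19 pairs, with a median of −0.017. These ranges overlap, and deviations within a group sum to 0, so the pairs depend on each other. Whether replicate numbers pair the stamen libraries cannot be decided from them. With a replicate block the stamen counts were 0, 10 and 1, and the gynoecium counts 1 in arf6arf8, 0 in mARF8, 3 in axr3 and 1 in arf6axr3, with LRX10 at adjusted p of 0.0587 in arf6arf8 and 0.0521 in axr3. The share of all loci called with the block is not given here. Depth limits the low values: 3 reads correspond to 0.195 to 0.812 CPM, so differences of BUPS2, LRX11, ANX2 and PPME1 in gynoecia rest on few reads.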
